A study of Mus musculus with 6 samples.

Results

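Collagens, laminins and integrins are the structural chains of the extracellular matrix and the receptors by which cells hold on to it. Genes were taken by their symbols, as every numbered collagen chain, laminin chain and integrin subunit of the mouse. The array had probes for 69 such genes (42 collagens, 10 laminins and 17 integrins) among 18217 named genes. Of the 69, 51 passed the filter on dim probes and were tested (29 collagens, 7 laminins and 15 integrins); the other 18 were too dim. No probe matched Col6a3, Col12a1, Lamc1, Itga10 or Itgb8.

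Epidermis was sampled from newborn mice of mixed strain at postnatal day 0. The 3 AhRCA mice carried a constitutively active aryl hydrocarbon receptor (AhR), a ligand-activated transcription factor, driven by the keratin 14 promoter, which is active in basal keratinocytes. The 3 wild-type (WT) mice were their littermates, 1 per AhRCA mouse, and each mouse was hybridised to its own 1-colour Agilent array. The comparison asks which of these transcripts differ in the epidermis when AhR is always active in its basal cells, overall and within each of the 3 litter pairs.

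As background, basal keratinocytes sit on a basement membrane, a thin sheet of type IV collagen and laminins. Integrin alpha6beta4 and the transmembrane collagen XVII anchor them to it in hemidesmosomes, and collagen VII fibrils tie the sheet to the dermis. Interstitial collagens build the dermis beneath: fibrillar chains form the fibrils, FACIT collagens (fibril-associated, with interrupted triple helices) sit on their surface, and collagen VI forms beaded filaments between them. Interstitial chains are known mainly as products of fibroblasts.

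Levels are log2 intensities relative to the 75th percentile of the same array, so that 0 is the signal of a fairly bright spot. They were compared between arrays for 1 probe at a time, never between genes. The summed marker levels given below are the exception. They add probes of several genes, so that bright probes weigh most. Between 56.2% and 61.3% of spots on an array were well above background and 0 were saturated. Pairs 1 and 2 lay on slide 1 and pair 3 on slide 2. The Xist transcript of the inactive X chromosome read 4.43 to 4.66 on slide 1 and -7.14 and -4.20 on slide 2, so that slide, sex and pair 3 coincided, balanced between genotypes. Among tissue markers, Krt5, Krt14, Krt1, Krt10 and Lor of keratinocytes were well above background on all 6 arrays. The endothelial markers Pecam1, Cdh5, Kdr, Tek, Emcn and Cldn5 were not so on any array.

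In AhRCA epidermis 2 of the 51 tested genes fell and 0 rose (limma, Benjamini-Hochberg adjusted p below 0.05). Of all 12824 genes tested 2.18% passed, 1.65% lower and 0.53% higher. Both members that fell were FACIT collagens, Col9a3 (5.42-fold lower) and Col16a1 (2.57-fold lower). At an unadjusted p under 0.05, 14 members were lower and 1 was higher, against 7.57% and 4.62% of all genes. Once litter pairs were blocked, 4 members fell and 1 rose, against 2.81% and 1.07% of all genes. The additions were Col27a1 and Col8a1, which were lower, and Col4a4, which was higher. Once slides were blocked, 7 fell and 2 rose, against 2.91% and 1.29% of all genes. On slide 1 alone 2 fell and 1 rose, against 0.741% and 0.273% of all genes.

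Within litter pairs, 22 of the 51 members were lower in AhRCA in all 3 pairs and 8 were higher in all 3. The same held for 20.1% and 19.7% of all genes tested. The 3 AhRCA levels lay wholly below the 3 WT levels for 12 members and wholly above for 2, against 8.84% and 7.52% of all genes. The members' median log2 fold change was -0.15, against 0.001 over all genes.

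**Figure D1:**
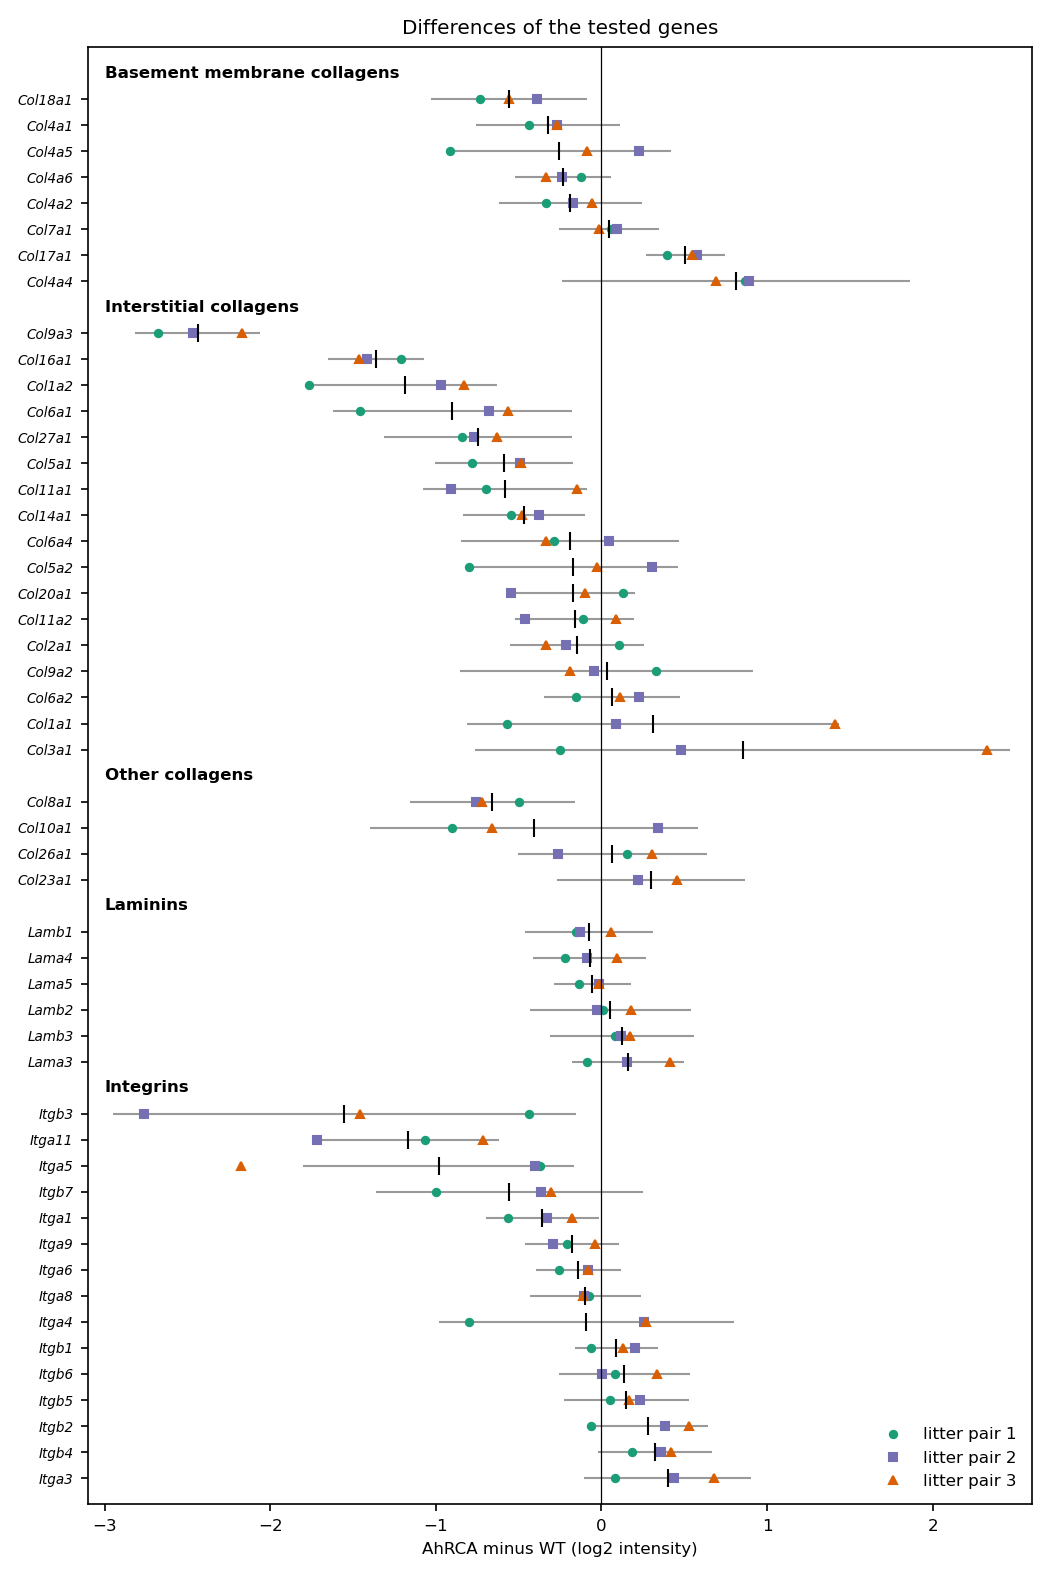
Difference between AhRCA and WT (log2 intensity) for the tested genes, by group, with 1 gene not shown. Symbols are the 3 litter pairs, black ticks the mean difference and grey lines its 95% interval from limma; the laminins lie close to 0, and Col9a3 and Col16a1 lie far to the left in every pair.

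Col9a3 encodes a chain of type IX collagen, a FACIT collagen best known from cartilage. Its level was -1.55, -1.66 and -2.08 in WT 1 to 3 and -4.23, -4.13 and -4.25 in AhRCA 1 to 3. The groups were far apart, and the AhRCA levels were close to each other. Col9a3 fell, with a log2 fold change of -2.44 ± 0.16 (limma, adjusted p = 0.00164) and differences of -2.68, -2.47 and -2.17 in pairs 1 to 3, and was well above background on all 6 arrays. After normexp background correction the log2 fold change was -1.38 (adjusted p = 0.00394). Of the other type IX chains, Col9a2 had a log2 fold change of 0.03 ± 0.37 (SE) and the probe of Col9a1 did not stand well above background in any sample. Of 6 chondrocyte markers, 0 passed the filter and Matn1, Matn3, Hapln1 and Cnmd were not well above background on any array; their summed level was 0.0856 to 0.103 times the 75th percentile signal in WT and 0.0812 to 0.0957 in AhRCA.

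Col16a1 encodes type XVI collagen, a FACIT-like chain found near the junction of epidermis and dermis. Its promoter is shown because it was the only 1 of the 2 fallen genes with an entry in the table of RefSeq promoters; the capitals mark the core of the AhR response element. The window runs from 250 bases before to 50 after the start of the gene, at chr4:130047590-130047889 of GRCm38.p6, plus strand:
Col16a1 promoter: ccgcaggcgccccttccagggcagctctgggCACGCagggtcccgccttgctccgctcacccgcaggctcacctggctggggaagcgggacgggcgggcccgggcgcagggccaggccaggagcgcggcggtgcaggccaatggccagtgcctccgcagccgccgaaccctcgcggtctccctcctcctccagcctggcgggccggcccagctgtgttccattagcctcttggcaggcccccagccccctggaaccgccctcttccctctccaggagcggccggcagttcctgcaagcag
The core, GCGTG, was searched on both strands. It occurred once, read on the opposite strand, from base 32 of the window. It was present in 32.4% of the 32851 promoter windows in the table, and in a window of 16 of the 51 members with a probe and an entry.

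Col16a1 stood at 3.16, 3.43 and 3.26 in WT 1 to 3 and at 1.95, 2.01 and 1.80 in AhRCA 1 to 3. The groups did not overlap, and the gap between them was several times the spread within either. Col16a1 fell, with a log2 fold change of -1.36 ± 0.12 (limma, adjusted p = 0.00546) and differences of -1.21, -1.41 and -1.46 in the 3 pairs. Col9a3 and Col16a1 kept their calls whichever array was left out (adjusted p up to 0.0165 and 0.0327). Of the 5 tested FACIT collagens 2 fell and the median was -0.47. Col14a1, which binds fibrils and regulates their diameter, had a log2 fold change of -0.47 ± 0.15 (adjusted p = 0.254) and was lower in all 3 pairs. Col20a1 had -0.17 ± 0.16 (adjusted p = 0.903).

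**Figure D2:**
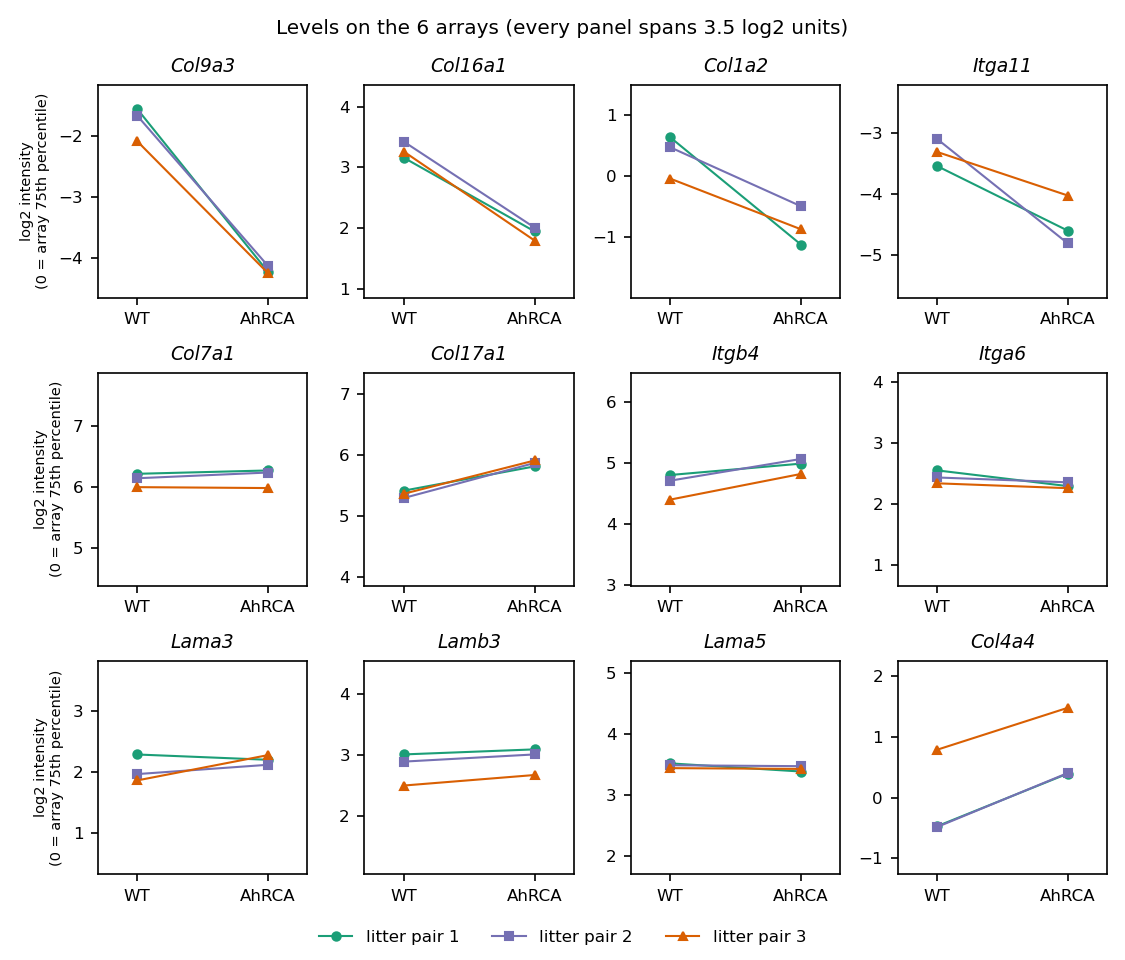
Log2 intensity relative to the array's 75th percentile (0) for 12 genes in WT and AhRCA epidermis, with a line for each litter pair. Col9a3 and Col16a1 fell in every pair, while lines for Col7a1, Itga6, Lamb3 and Lama5 are nearly flat; each panel has its own vertical position but the same span.

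Of 9 tested fibrillar collagens 0 passed the test (limma). At an unadjusted p under 0.05 (limma), 4 were lower and 0 higher, against 7.57% and 4.62% of all genes. The list holds chains of the dermis and also chains known from cartilage, such as Col27a1. Col1a2, a chain of type I collagen, stood at 0.64, 0.47 and -0.04 in WT 1 to 3 and at -1.13, -0.50 and -0.87 in AhRCA 1 to 3. All AhRCA levels lay below all WT levels. Its log2 fold change was -1.19 ± 0.23 (adjusted p = 0.0623, limma), and it passed once slides were blocked (0.0464), without WT replicate 3 (0.0497) and with normexp background correction (0.0423). It missed once litter pairs were blocked (0.0636), under quantile normalization (0.0688), with median scaling (0.113), with no filter on dim probes (0.129) and without any other array (up to 0.221).

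Col1a1, the other chain of type I collagen, read -1.67, -1.61 and -3.30 in WT and -2.23, -1.52 and -1.89 in AhRCA. Col3a1, the type III chain, read -1.56, -1.30 and -3.84 in WT and -1.81, -0.82 and -1.51 in AhRCA. For both genes WT 3 stood well below the other 5 arrays, and the groups overlapped. Their log2 fold changes were 0.31 ± 0.47 (adjusted p = 0.996) and 0.85 ± 0.68 (adjusted p = 0.854), with differences of 1.41 and 2.33 in pair 3 and between -0.57 and 0.48 in pairs 1 and 2. The brightest Col1a1 probe stood for the gene; its other probes were well above background on at most 2 arrays.

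Type V collagen is incorporated into type I fibrils. Col5a1 had a log2 fold change of -0.59 ± 0.18 (adjusted p = 0.197), lower in all 3 pairs, but its kept probes differed in sign (-0.59 and 0.08). It fell once slides were blocked (0.0328) and missed once litter pairs were (0.0610). Col5a2 had -0.17 ± 0.27 (adjusted p = 0.996). Col27a1, a fibrillar collagen known from cartilage, read 1.07, 0.63 and 0.28 in WT and 0.22, -0.14 and -0.35 in AhRCA. It was lower by a similar amount in each pair (-0.84, -0.77 and -0.63), with a log2 fold change of -0.75 ± 0.24 (adjusted p = 0.231), and fell once litter pairs were blocked (limma, 0.0273), but not once slides were (0.0746) or on slide 1 alone (0.175). Col11a1 had -0.58 ± 0.21 (adjusted p = 0.300) but -0.13 after normexp background correction (0.826), and Col2a1 and Col11a2 had -0.15 and -0.16.

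Of the 3 tested collagen VI chains 0 passed. Col6a1 had a log2 fold change of -0.90 ± 0.30 (adjusted p = 0.265), with -1.46, -0.68 and -0.57 in pairs 1 to 3, and -0.52 after normexp. Col6a2 and Col6a4 had 0.06 and -0.19, and -0.02 and 0.03 after normexp. Among collagens of other kinds, Col8a1, a short network-forming chain, read 1.32, 1.47 and 0.94 in WT and 0.82, 0.71 and 0.22 in AhRCA. The groups did not overlap; its log2 fold change was -0.66 ± 0.21 (adjusted p = 0.227), and it fell once litter pairs (0.0417) or slides (0.0207) were blocked, or when its probes were averaged (0.0450). Col10a1, Col23a1 and Col26a1 had -0.41, 0.30 and 0.07.

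Set side by side, 2 of 17 tested interstitial collagens and 0 of 8 basement membrane collagens fell, and none of either rose (limma; at an unadjusted p under 0.05, 8 and 1 were lower and 0 and 1 higher). Of the 17 interstitial chains 8 were lower in all 3 pairs and 0 were higher. Of the 8 basement membrane chains 4 were lower and 2 higher. Among all genes tested 20.1% were lower and 19.7% higher in all 3 pairs. At an unadjusted p under 0.05 (limma) 7.57% of all genes were lower and 4.62% higher, and 1.65% fell and 0.53% rose after adjustment. Median log2 fold changes were -0.19 and -0.21. Within pairs 1 to 3 the medians were -0.57, -0.46 and -0.33 for interstitial chains and -0.23, -0.04 and -0.07 for basement membrane chains. The medians shifted with single arrays. The interstitial one was between -0.38 and -0.30 without WT replicate 1, 2 or 3 or AhRCA replicate 2 or 3, and -0.22 without AhRCA replicate 1; the basement membrane one was -0.07 without WT replicate 1 and -0.12 without AhRCA replicate 3. The difference between these groups of genes was not tested. The interstitial list also holds chains known from cartilage, such as Col9a3 and Col27a1, so it does not stand for the dermis alone.

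**Figure D3:**
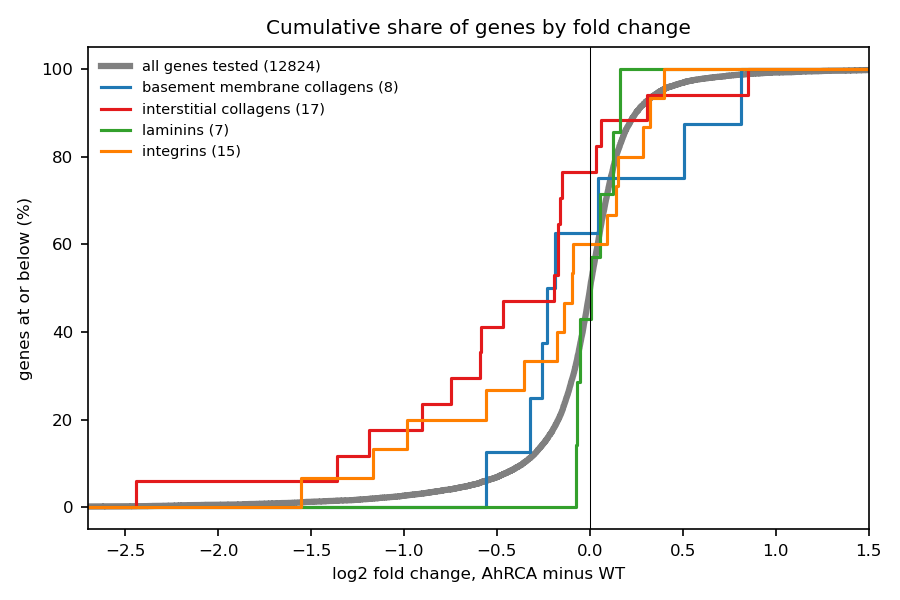
Share of genes (%) with a log2 fold change at or below the value on the horizontal axis, for all 12824 genes tested and for 4 groups, with the number of genes in brackets. The curve of the 17 interstitial collagens lies above that of all genes between -2.44 and 0, and the 7 laminins span only -0.08 to 0.16.

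Of 10 fibroblast markers, 6 were tested and 0 passed; Thy1 and Fap were the nearest, both lower, with log2 fold changes of -1.36 (adjusted p = 0.0653) and -1.21 (0.0606). Dcn, Lum and Vim had -0.18, 0.48 and -0.01, and Twist2, well above background on 3 of the 6 arrays, had 0.75. None of Pdgfra, Pdgfrb, Dpt and Twist1 stood well above background in any sample. The markers' summed level was 29.6 to 35.2 in WT and 28.6 to 31.2 in AhRCA, in units of the 75th percentile signal. Some markers of other epidermal cells also fell. Of 6 sebaceous gland markers 5 were tested and all 5 fell, with a summed level of 13.3 to 18.4 in WT and 3.63 to 4.24 in AhRCA, and Mc5r did not stand well above background in any sample. Of 6 Merkel cell markers 4 were tested and 3 fell, with a summed level of 1.40 to 2.20 in WT and 0.422 to 0.637 in AhRCA, and neither Atoh1 nor Sox2 stood well above background in any sample. Of 4 tested Langerhans cell markers 1 fell, Cd207 (-2.59 ± 0.35, adjusted p = 0.0206, limma), with a summed level of 8.25 to 10.4 in WT and 6.82 to 7.80 in AhRCA. Cd207 and Piezo2, 1 of the 3 Merkel cell markers that fell, were well above background on only 3 of the 6 arrays, which limits their fold changes. Of 8 hair follicle markers 1 fell, Lgr5 (-0.83 ± 0.11, adjusted p = 0.0199), with a summed level of 33.7 to 36.5 in WT and 31.8 to 34.5 in AhRCA. The part of these cells in the collagen values was not tested, and in bulk epidermis fewer cells of a type and less RNA per cell cannot be told apart.

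In the basement membrane, the type IV chains form the network. Col4a1 and Col4a2, which are made as a pair in most basement membranes, had log2 fold changes of -0.32 ± 0.18 and -0.19 ± 0.18 and were lower in all 3 pairs, with differences between -0.44 and -0.06. Col4a5 and Col4a6, chains of the network in skin, had -0.26 ± 0.28 and -0.23 ± 0.12. None of these 4 passed (adjusted p between 0.590 and 0.950, limma). Col4a4, known from the kidney filter, differed from them. It read -0.47, -0.49 and 0.78 in WT and 0.39, 0.40 and 1.47 in AhRCA, so that pair 3 stood higher in both genotypes and the groups overlapped. It was higher by 0.87, 0.89 and 0.69 within the pairs. Its log2 fold change was 0.81 ± 0.44 (adjusted p = 0.607), and it rose once litter pairs (0.0228) or slides (0.0109) were blocked and on slide 1 alone (0.0465). Its partner Col4a3 was below the filter.

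Col17a1, the hemidesmosomal collagen of basal keratinocytes, was the basement membrane collagen nearest the threshold. It read 5.42, 5.30 and 5.37 in WT and 5.82, 5.88 and 5.92 in AhRCA, and the groups did not overlap. Its log2 fold change was 0.51 ± 0.10 (adjusted p = 0.0623, limma), with 0.40, 0.58 and 0.55 in the 3 pairs. It missed once litter pairs were blocked (0.0591) and passed once slides were (0.0317). Col7a1, the chain of the anchoring fibrils, read 6.214, 6.141 and 5.995 in WT and 6.269, 6.235 and 5.980 in AhRCA. Its log2 fold change was 0.05, with a 95% interval from -0.26 to 0.35. Col18a1, whose C-terminal fragment is endostatin, had -0.56 ± 0.20 (adjusted p = 0.294), lower in all 3 pairs, and passed under 1 of the alternatives run, blocked slides (0.0389).

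The laminins had the narrowest range of fold changes of the 3 families. Of 7 tested chains 0 passed with limma and 0 had an unadjusted p under 0.05. Log2 fold changes ran from -0.08 (Lamb1) to 0.16 (Lama3), and all 7 had 95% intervals within a 2-fold change, with bounds between -0.46 and 0.56. Lama3 and Lamb3 encode laminin chains that help link hemidesmosomes to the anchoring fibrils. Lama3 read 2.28, 1.96 and 1.86 in WT and 2.20, 2.11 and 2.27 in AhRCA, and its kept probes differed in sign (0.16 and -0.04). Lamb3 read 3.01, 2.89 and 2.50 in WT and 3.09, 3.01 and 2.67 in AhRCA. For both genes the groups overlapped, and the spread within WT exceeded the difference between the genotypes. Lama5, the alpha chain of the other main epidermal laminin, had -0.05 ± 0.10, and Lama4, a chain of vessel basement membranes, had -0.07 ± 0.14. Lamb2 had 0.05 ± 0.20. Lama1, Lama2 and Lamc3 were below the filter.

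Of the 15 tested integrins 0 passed. At an unadjusted p under 0.05 (limma), 4 were lower and 0 higher, against 7.57% and 4.62% of all genes. Among laminin receptors, Itgb4, the hemidesmosomal beta subunit, read 4.81, 4.71 and 4.40 in WT and 4.99, 5.07 and 4.83 in AhRCA. AhRCA lay above WT on every array by a small margin, and the log2 fold change was 0.32 ± 0.14 (adjusted p = 0.467). Its partner Itga6 had -0.14 ± 0.11 (adjusted p = 0.839) and was lower in all 3 pairs. Itga3, the alpha subunit of a second keratinocyte laminin receptor, had 0.40 ± 0.21 (adjusted p = 0.590) and was higher in all 3 pairs. Itgb1, the shared beta subunit, had 0.09, with a 95% interval from -0.16 to 0.34.

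The collagen-binding integrins differed in size. Itga11, a collagen receptor known from fibroblasts, read -3.54, -3.09 and -3.31 in WT and -4.60, -4.81 and -4.03 in AhRCA. The groups did not overlap, but only 1 of 3 AhRCA arrays was well above background. Its log2 fold change was -1.17 ± 0.23 (adjusted p = 0.0623, limma). It passed once slides were blocked (0.0429), under quantile normalization (0.0406), with median scaling (0.0423) and without AhRCA replicate 3 (0.0353), and missed once litter pairs were blocked (0.0666), with no filter on dim probes (0.129) and without any other array (up to 0.219). After normexp background correction its log2 fold change was -0.43 (0.0884). Itga1 had -0.36 ± 0.14 (adjusted p = 0.381), lower in all 3 pairs, and -0.11 after normexp. Neither probe of Itga2, the keratinocyte collagen receptor, was well above background on any array.

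Among receptors of fibronectin, vitronectin and related ligands, Itga5 read -2.59, -2.67 and -1.72 in WT and -2.97, -3.07 and -3.89 in AhRCA. In pair 3 the WT level was the highest and the AhRCA level the lowest of the 6, so that the difference was -2.18 there and -0.37 and -0.40 in pairs 1 and 2. The log2 fold change was -0.98 ± 0.34 (adjusted p = 0.288). Itgb3, the subunit of platelet and vitronectin receptors, had -1.55 ± 0.58 (adjusted p = 0.338) from a probe well above background on 2 WT arrays and 1 AhRCA array. After normexp background correction Itga5 had -0.41 (adjusted p = 0.286) and Itgb3 -0.44 (adjusted p = 0.550). Itgb5, Itgb6 and Itga8 had 0.15, 0.14 and -0.10. Itga4 and Itga9 had -0.09 and -0.18. Of the leukocyte subunits, Itgb7 had -0.56 ± 0.34 (adjusted p = 0.698) and Itgb2 had 0.28 ± 0.15 (adjusted p = 0.599). Of 6 tested integrins with letter names, which the symbol rule leaves out, 0 passed. At an unadjusted p under 0.05 (limma), 2 were lower and 0 higher, against 7.57% and 4.62% of all genes. The largest change was that of Itgae, a subunit of epidermal T cells (-0.81 ± 0.30, adjusted p = 0.331, limma). Itga2b, the platelet alpha subunit, was nearest the threshold (-0.60 ± 0.12, adjusted p = 0.0653, limma), with no overlap, and fell once slides were blocked (0.0462).

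The proteins that work with these chains were described from lists chosen for their function. The lists do not strictly separate basement membrane from interstitial proteins. Among all genes tested 1.65% fell and 0.53% rose. Of 11 tested genes listed as basement membrane partners 1 fell and 0 rose. Bgn, the small proteoglycan biglycan, had a log2 fold change of -1.53 ± 0.17 (limma, adjusted p = 0.0120), from -2.17, -1.70 and -2.21 in WT to -3.70, -3.56 and -3.40 in AhRCA; it missed without AhRCA replicate 2 (0.0610). Sparc, a collagen-binding glycoprotein, read 2.50, 2.20 and 1.69 in WT and 3.43, 3.41 and 2.95 in AhRCA, with no overlap. Its log2 fold change was 1.13 ± 0.24 (adjusted p = 0.0755), and it rose once litter pairs were blocked (0.0157). Nid1, Hspg2 and Agrn, which encode nidogen 1, perlecan and agrin, had -0.11, -0.23 and 0.19.

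Of 19 tested hemidesmosome and integrin partners 0 passed. At an unadjusted p under 0.05 (limma), 2 were lower and 1 higher, against 7.57% and 4.62% of all genes. Tns3, a focal adhesion protein, had the largest change (-0.71 ± 0.14, adjusted p = 0.0624) and fell once litter pairs were blocked (0.0491). Dst and Plec, the plakins of the hemidesmosome, had 0.21 and -0.16, and Krt5 and Krt14, the keratins attached to it, had 0.02 and 0.002. Of 11 tested genes listed as interstitial glycoproteins 1 fell, Fbln2, fibulin 2 (log2 fold change -1.71 ± 0.29, limma, adjusted p = 0.0427). It read 2.66, 2.02 and 1.83 in WT and 0.29, 0.96 and 0.14 in AhRCA. Fn1, fibronectin, and Tnc, tenascin C, had 0.18 and -0.10.

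Of 14 tested genes of collagen modification, folding and crosslinking 0 passed and the median was -0.03. At an unadjusted p under 0.05 (limma), 3 were lower and 0 higher, against 7.57% and 4.62% of all genes. Loxl2, a crosslinking oxidase, had the largest change (-0.69 ± 0.15, adjusted p = 0.0917). The prolyl hydroxylase subunits P4ha1 and P4ha2 and the collagen chaperone Serpinh1 had 0.22, 0.14 and 0.10. Of 12 tested matrix proteases and inhibitors 1 fell, Timp1, an inhibitor of metalloproteinases (log2 fold change -0.90 ± 0.15, limma, adjusted p = 0.0402). The median of the list was -0.37, with -0.52, -0.46 and -0.31 in pairs 1 to 3. Adamts4, an aggrecan-cleaving protease, had the largest change, 1.62 ± 0.73 (adjusted p = 0.471), most of it in pair 3 (4.05, against 0.08 and 0.74). Adamts5, Mmp13 and Mmp15 had -0.63, -1.07 and -0.89; they missed in the unblocked fit and fell once litter pairs were blocked (0.0317, 0.0123 and 0.0337), while Timp1 then missed (0.0548). Once slides were blocked (limma), Timp1 (0.0353), Adamts5 (0.0160) and Mmp15 (0.0317) fell. Of all genes, 2.81% fell with litter pairs blocked and 2.91% with slides blocked. Fbln2 and Timp1 missed whichever 1 array was left out (adjusted p between 0.0610 and 0.140 and between 0.0579 and 0.148).

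**Figure D4:**
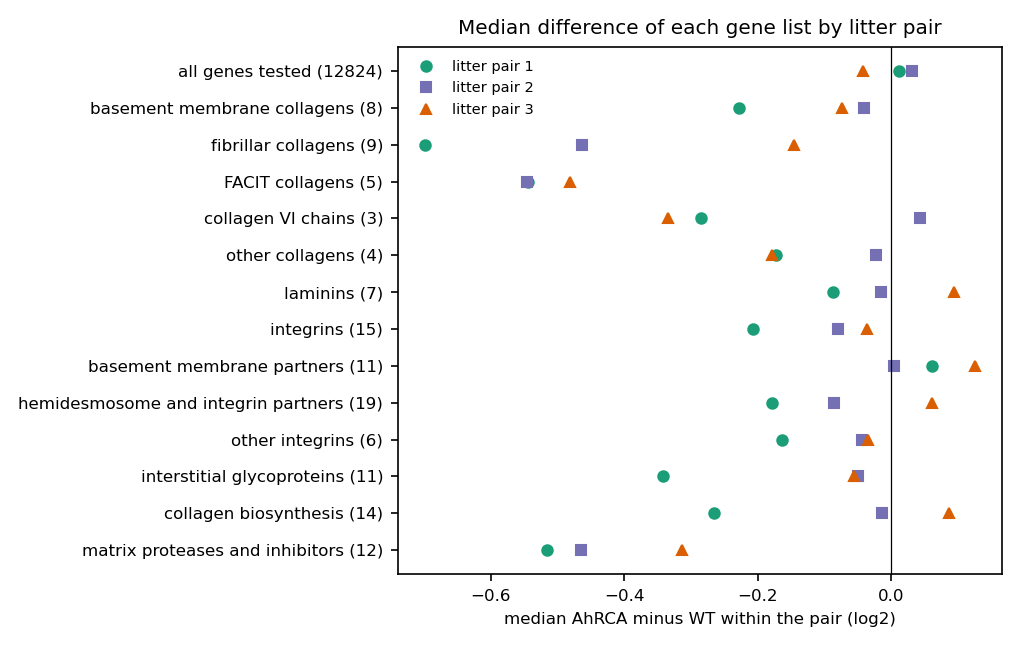
Median difference between AhRCA and WT within each litter pair (log2) for all genes tested and for 13 gene lists, with the number of tested genes in brackets. Basement membrane, fibrillar, FACIT and other collagens, integrins, other integrins, interstitial glycoproteins and matrix proteases and inhibitors lie left of 0 in all 3 pairs. All genes tested lie between -0.04 and 0.03.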

How the data were processed

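Per the file headers, Feature Extraction 10.7.3.1 (Agilent) gave spot intensities after subtracting background and spatial trends. The authors' deposited table holds log2 values; differences between its arrays had a slope of 1 on those of the scanner intensities, so its scale is log2 and its direction that of the intensities, while how its probes were centred is not stated. The median of its columns was -0.0705 in WT 1, -0.0495 in WT 2, 0.0827 in WT 3, 0.0283 in AhRCA 1, 0.0638 in AhRCA 2 and -0.071 in AhRCA 3.

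Log2 intensities were scaled to each array's 75th percentile (627.1 to 753.8). Control spots and 56 to 94 outlier spots per array were left out. Of 41174 probes, 26690 matched 1 symbol and 14484 none, through unversioned accessions in a RefSeq table of GRCm38.p6. Kept probes stood well above background on 3 or more of the 6 arrays, and the brightest stood for its gene. Genotypes were compared with limma 3.58.1 (2 group means, two-sided, Benjamini-Hochberg over 12824 genes, threshold 0.05). The fit was also run on simulated data whose arrays shared no slide or litter effect. That run cannot show how the fit handles such effects. The number of arrays limits the precision. Fold changes are AhRCA minus WT, and ± is the standard error (n = 3 mice per group). Summed marker levels add the brightest probe of each marker, including markers below the filter.

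Litter pairs come from the design text. Same-numbered arrays deviated together (r = 0.337, 0.372 and 0.55 across 12821 genes). On slide 1 differently numbered arrays also did, less strongly (0.15 for WT 1 with AhRCA 2, 0.194 for WT 2 with AhRCA 1). Between slides r was -0.416 to -0.356. The value of 0.55 is that of the only pair on slide 2, where litter cannot be told apart from slide and sex. The pairing was accepted, and only the gap within slide 1 bears on it. The deposited files hold the median spot signal, which normexp used in place of the mean. Named are members past the threshold, core chains of the epidermal junction and dermis, the 4 largest changes in each family, and from each partner list the genes past the threshold or the largest change; other named genes were chosen after their values were seen. Members and lists were chosen with earlier results of these data known. The values of 1 tested gene are not reported here, though it is in the counts.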

Additional observations from a re-analysis of the deposited data

How the results depend on the processing

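Col9a3 and Col16a1 fell under every alternative with a test, and the count of members that fell was 2 to 3 in all of them except the blocked fits. With the replicate block (litter pairs), 497 genes were called in all, 4 members were lower and 1 was higher; blocking slides gave counts of 539, 7 and 2. On slide 1 alone 130 genes were called, among them 1 member that was higher, Col4a4. Without a filter on dim probes 132 genes were called, and Col8a2 was lower, from a probe not well above background on any array. With 1 array left out, between 62 and 195 genes were called, 2 to 3 members were lower and 0 higher. The median of basement membrane collagens then ran from -0.231 to -0.069 and that of interstitial collagens from -0.383 to -0.223. On slide 2, with 1 pair and no test, the medians were -0.073 and -0.334. Median scaling put the median of all genes at 0.034. The cause of these shifts was not tested. Signal near background limits at least the 7 of the 51 tested members that were not well above it on all 6 arrays. Some members well above it on all 6 also shifted under normexp background correction. Col9a3 then had -1.38 in place of -2.44 and Itga5 -0.41 in place of -0.98, while Col16a1 had -1.33 in place of -1.36.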

Other observations

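The change on slide 2 minus that on slide 1 was estimated with an interaction term added after the data were seen. Slide 2 held 1 array of each genotype, so the fit measured no spread between mice there. Only effect sizes are therefore given. The largest differences among the 51 members were -1.79 for Itga5, 1.65 for Col1a1 and 2.21 for Col3a1 (log2). Slide 2 held 1 pair, so that slide, litter and sex cannot be told apart.

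Krt15, a keratin of basal cells, was the 1 of 7 tested keratinocyte markers to pass (log2 fold change -0.72 ± 0.13, limma, adjusted p = 0.0460). Cspg4, a proteoglycan of pericytes and follicle stem cells, had -1.10 ± 0.19 (limma, adjusted p = 0.0455). It was the only 1 of 3 tested smooth muscle and pericyte markers to pass. Acta2 and Tagln had 0.053 and -0.255, and neither Myh11 nor Rgs5 stood well above background on any array. Of 5 tested Schwann cell markers, 0 passed, with log2 fold changes between -0.19 and 0.23.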
